A study of Mus musculus with 10 samples.

Results

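Sox4 CUT&RUN peaks were taken from 3 replicates of sorted p27kip1-GFP positive progenitors of the mouse cochlea at E13.5, and every peak on chromosomes 1 to 19 was used. These were 158444 peaks in replicate 1, 72417 in replicate 2 and 38914 in replicate 3, 269775 of the 752944 peaks in the 6 lists examined. The other 483169 came from ATAC-seq of 3 wildtype samples of the same day, unsorted, which the titles call whole organ and the protocol whole epithelia. Both kinds of sample are labelled wildtype, the Sox4 samples from mice that carry the p27kip1-GFP reporter, and the series also holds SoxC double knockout ATAC and single-cell RNA samples, which were not used here. The antibody was a guinea pig anti-Sox4, the titles call the assay ChIP where the protocol describes CUT&RUN, and no library with a control antibody was used here. Peak lists hold no RNA, so the sorted cells could not be checked against marker genes. Nothing says whether replicates came from separate animals, so the spread between them may be technical.

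Sox4 belongs with Sox11 and Sox12 to the SoxC transcription factors, which bind short A/T-rich DNA through an HMG box and are known for driving differentiation of progenitors in neural and sensory tissue. In the cochlea, p27kip1, the cyclin-dependent kinase inhibitor encoded by Cdkn1b, marks the prosensory progenitors as they leave the cell cycle, before hair cells and supporting cells form. In CUT&RUN a nuclease tethered to the antibody releases the DNA around the bound factor, and in ATAC-seq a transposase inserts into open chromatin. A peak is a stretch of genome where a library's fragments pile up above its own local background.

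The sites at Hnrnpa1, Mrps18b and Deaf1, among the strongest of all 3 replicates, lay just upstream of the gene starts used here. They also lay inside the annotated spans of Hnrnpa1, Ppp1r10 and Deaf1, in that order. The site at Deaf1 also lay in the promoter of Tmem80, on the other strand. To show examples of the DNA at Sox4 sites, 5 promoters are printed. Each line runs from 250 bases before to 50 bases after the start, 5′ to 3′ on the gene's strand, from RefSeq on build GRCm38.p6, with capitals for CCAAT and for the letters that Sox factors bind, ACAAAG and its close relative ACAATG, on either strand (a match on the other strand shows its reverse complement). Hnrnpa1 (chr15:103240147-103240446, plus strand) encodes an RNA-binding protein of splicing. Mrps18b (chr17:35916391-35916690, minus) encodes a protein of the mitochondrial ribosome, and Deaf1 (chr7:141327676-141327975, minus) a DNA-binding factor. Numb (chr12:83921885-83922184, minus), an inhibitor of Notch signalling, had its site in 2 replicates. Ing1 (chr8:11555512-11555811, plus), a reader of histone methylation, was chosen after its letters were seen, as a case with Sox letters.
Hnrnpa1: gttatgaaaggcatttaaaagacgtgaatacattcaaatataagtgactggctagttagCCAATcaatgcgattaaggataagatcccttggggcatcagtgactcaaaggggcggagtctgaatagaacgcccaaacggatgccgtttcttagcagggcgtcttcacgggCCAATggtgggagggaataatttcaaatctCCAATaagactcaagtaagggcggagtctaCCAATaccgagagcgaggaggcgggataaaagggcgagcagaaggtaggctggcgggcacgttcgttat
Mrps18b: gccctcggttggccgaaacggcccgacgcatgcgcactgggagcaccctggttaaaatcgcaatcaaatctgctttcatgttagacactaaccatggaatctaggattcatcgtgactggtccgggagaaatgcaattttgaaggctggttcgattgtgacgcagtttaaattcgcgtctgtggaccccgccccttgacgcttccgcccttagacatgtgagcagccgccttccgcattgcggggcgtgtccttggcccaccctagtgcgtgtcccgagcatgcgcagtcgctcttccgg
Deaf1: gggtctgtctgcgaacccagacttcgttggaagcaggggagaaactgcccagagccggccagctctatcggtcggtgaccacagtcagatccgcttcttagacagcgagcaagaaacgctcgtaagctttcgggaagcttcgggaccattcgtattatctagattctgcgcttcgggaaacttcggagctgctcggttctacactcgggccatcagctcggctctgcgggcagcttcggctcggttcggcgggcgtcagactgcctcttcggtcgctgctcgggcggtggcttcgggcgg
Numb: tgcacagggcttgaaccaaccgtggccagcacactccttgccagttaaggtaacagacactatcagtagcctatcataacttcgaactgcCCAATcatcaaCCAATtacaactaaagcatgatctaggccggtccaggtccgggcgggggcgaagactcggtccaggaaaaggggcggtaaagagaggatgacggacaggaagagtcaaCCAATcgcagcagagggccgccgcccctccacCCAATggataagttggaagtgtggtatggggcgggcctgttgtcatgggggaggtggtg
Ing1: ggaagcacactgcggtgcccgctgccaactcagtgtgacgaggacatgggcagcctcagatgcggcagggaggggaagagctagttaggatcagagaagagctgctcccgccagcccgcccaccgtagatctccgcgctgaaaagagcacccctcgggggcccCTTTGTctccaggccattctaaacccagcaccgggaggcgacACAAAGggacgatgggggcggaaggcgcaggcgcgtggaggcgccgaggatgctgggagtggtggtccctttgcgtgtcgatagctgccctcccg
Hnrnpa1 and Numb held 4 CCAAT each and no Sox letters. Mrps18b and Deaf1 held neither, and Ing1 held 2 ACAAAG and no CCAAT. These 5 promoters thus held different letters, and some held none of those marked. As Ing1 was chosen for its letters, they do not show how often strong sites hold Sox letters.

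Ranks in each list ran by −log10 p, the significance of a peak against its local background. In the order of replicates 1 to 3, Hnrnpa1 ranked 20, 14 and 9, Mrps18b ranked 15, 27 and 16, and Deaf1 ranked 28, 26 and 17. Their sites lay 224, 194 and 171 bp from the starts. The best site at a gene start, 168 bp from that of the zinc finger gene Zfp524 (chr7:5014218-5015316), ranked 6, 2 and 10 and had fold enrichments over background of 14.6, 16.7 and 10.2. Cldn9, which encodes a claudin of tight junctions, ranked 32, 5 and 40 with folds of 9.60, 13.1 and 7.56. Polr2a, the largest subunit of RNA polymerase II, ranked 29, 35 and 46. Sp1, a factor that binds GC boxes, ranked 24, 10 and 47, and Garnl3 ranked 42, 52 and 60. All of these sites were also among the 50000 strongest peaks of every wildtype ATAC library, but further down those lists, at ranks 17272, 17643 and 17553 for Zfp524 and 2998, 2922 and 2015 for Sp1. Folds and −log10 p are the authors' values for each peak, used here to describe and rank.

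How far a Sox4 peak of one replicate recurred in another was read from its rank. Peaks were matched when the windows of 250 bp on each side of their summits overlapped, that is, when the summits lay within 500 bp. Among the 2000 strongest peaks, 533 of replicate 1 (26.65%, 95% exact interval 24.7 to 28.6), 708 of replicate 2 (35.4%, 33.3 to 37.5) and 852 of replicate 3 (42.6%, 40.4 to 44.8) were found in another replicate. Over all ranks the shares were 6.65%, 12% and 15.5%. In the tenth bin of 2000, which ends at rank 20000, they were 6.55%, 13.8% and 17.05%, so the peaks of that bin recurred about as often as the whole list. That bin stood above those just before and after it. These held 5.80% and 6.10% in replicate 1, 11.4% and 12.35% in replicate 2, and 14.35% and 12.8% in replicate 3. The mean over the 3 libraries was 34.9% ± 7.99 (SD, n = 3) for the first bin and 12.5% ± 5.38 for the tenth. The difference, 22.4 ± 2.82 percentage points, was in the same direction in 3 of 3 libraries, and the two-sided exact permutation test gave p = 0.25, the smallest that 3 libraries allow. All such intervals cover counting error only.

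Much of this fall happened within the first few bins of 200 peaks. Of the 200 strongest, 86.0%, 92.0% and 94.0% were found in another replicate, and 64.0%, 71.5% and 73.5% in both others. Among the next 200 the shares in another replicate were 40.0%, 55.5% and 71.0%, and at ranks 1801 to 2000 they were 10.5%, 20.0% and 30.0%. The second bin of 2000 stood at 9.50%, 16.3% and 18.9%. Every full bin after the first, 78, 35 and 18 of them, held less than 0.5 times the share of the first bin of its replicate. Recurrence in both other replicates fell further, from 14.0%, 17.65% and 20.6% in the first bin to 0.300%, 1.65% and 2.00% in the tenth, against 0.594%, 1.25% and 2.33% over all ranks.

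**Figure D1:**
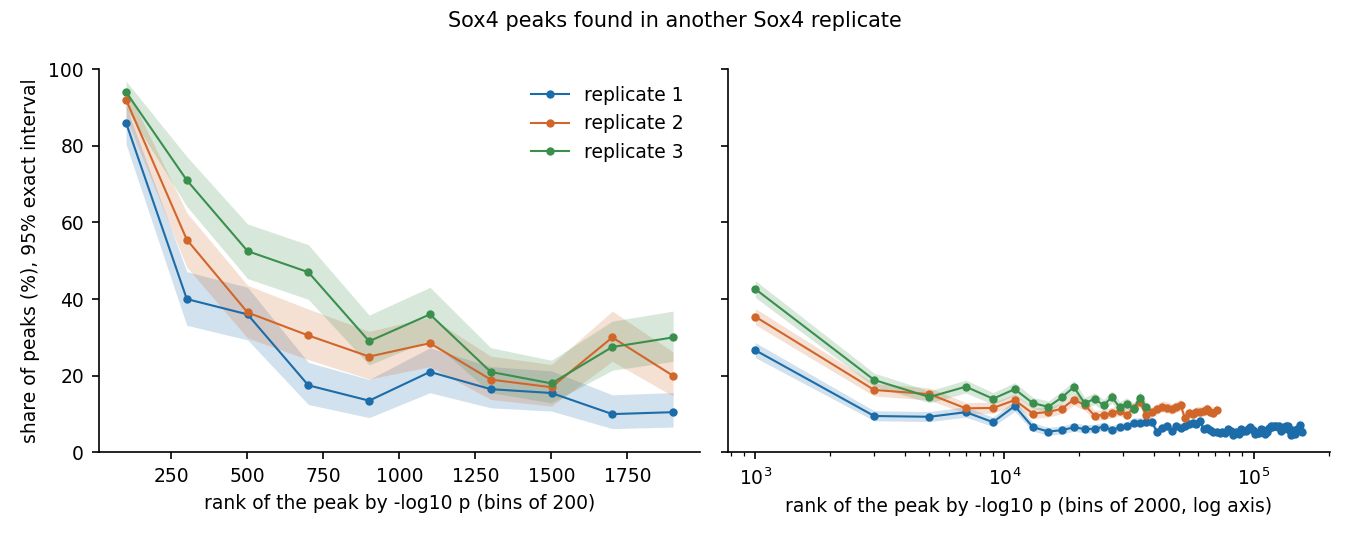
Share of Sox4 peaks found in another replicate (vertical axis, %) against rank by −log10 p, in bins of 200 (left) and of 2000 on a log axis (right), with 1 line per replicate and bands for 95% exact intervals. The 200 strongest peaks stand at 86.0% to 94.0%, and from the second bin of 2000 on no replicate exceeds 18.9%.

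The order of the replicates ran with list length. Replicate 3, the shortest list, recurred most often, and it was set against the longest other lists. The windows of the other 2 replicates came within reach of 4.39% of the autosomes for replicate 1, 7.71% for replicate 2 and 8.96% for replicate 3, against shares in the tenth bin of 6.55%, 13.8% and 17.05%. The part of list length in those shares was not tested. With only the 20000 strongest peaks of the other replicates, the mean share was 25.4% in the first bin and 4.23% in the tenth. With summits within 100 bp the means were 20.9% and 3.22%. Leaving out a replicate leaves 1 other list to be found in, and gave 25.6% to 26.8% and 6.10% to 7.58%, the lowest for the later bin without replicate 1.

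At equal list length the replicates shared few peaks beyond the top. The 100 strongest peaks of 2 replicates were held by both in 40.3% ± 2.31 of cases (SD over 3 pairs), the 500 strongest in 27.7% ± 2.40 and the 2000 strongest in 12.5% ± 1.26. The pairs of replicates gave 11.3% (1 and 2), 12.3% (1 and 3) and 13.8% (2 and 3) at 2000. From 10000 peaks on the share was nearly level, with 4.85% at 10000, 4.15% at 20000 and 4.17% at 38000. Where a top peak did recur, it was often, but not always, a top peak there too. Of the 392 top peaks of replicate 1 found in replicate 3, 246 (62.8%) were among its 2000 strongest. Of the 681 top peaks of replicate 3 found in replicate 1, 247 (36.3%) were, and their median rank there was 10125.

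**Figure D2:**
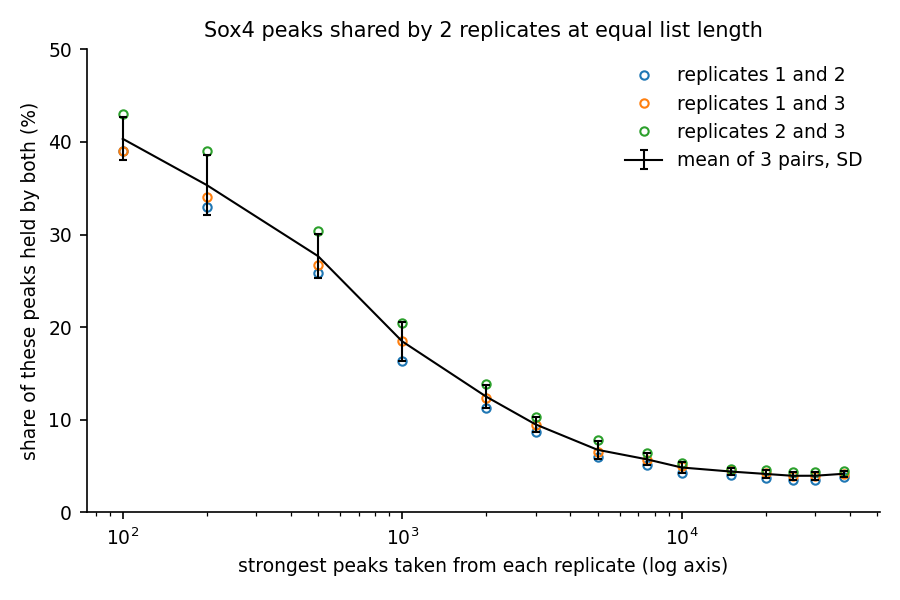
Share of the strongest Sox4 peaks that 2 replicates both held (vertical axis, %) against the number taken from each (log axis), with open circles for the 3 pairs and the line for their mean with SD. The mean falls from 40.3% at 100 peaks to 4.85% at 10000 and is nearly level after.

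Ranks became coarse early, because many peaks carried identical values. Replicates 1 to 3 held 735, 996 and 983 distinct −log10 p values, and the commonest was carried by 32.7%, 16.2% and 19.3% of rows. At rank 2000 the −log10 p was 9.13, 8.62 and 6.78, and at rank 20000 it was 6.16, 5.70 and 4.24. Adjusted for the genome, 59775, 35391 and 6207 peaks had a −log10 q of at least 2. After rank 2000, peaks whose value was held by at most 10 peaks were found in another replicate in 28.5%, 24.8% and 29.4% of cases, and those whose value was held by over 1000 in 5.90%, 10.7% and 13.1%. Openness split in the same way, with 19.8%, 11.9% and 17.1% against 2.74%, 3.80% and 4.89%. Tied peaks were put in a fixed random order.

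The strongest Sox4 peaks lay in open chromatin far more often than the rest. A peak was taken as open when it matched one of the 50000 strongest ATAC peaks in each of the 3 wildtype libraries. In the first bin 551 peaks of replicate 1 (27.55%, interval 25.6 to 29.6), 633 of replicate 2 (31.65%, 29.6 to 33.7) and 756 of replicate 3 (37.8%, 35.7 to 40.0) were open, where 1.39% of the autosomes lay in reach of such a peak. Over all ranks 3.73%, 5.11% and 7.6% were open, and in the tenth bin 3.35%, 7.50% and 7.80%. The means of 32.3% ± 5.16 and 6.22% ± 2.49 (SD, n = 3) differed by 26.1 ± 3.36 points, in 3 of 3 libraries (exact permutation test, two-sided p = 0.25, the smallest possible). Of the 200 strongest peaks 79.5%, 87.5% and 84.0% were open. A peak in any full wildtype list, however weak, was present at 37.5%, 40.85% and 46.4% of the first bin, against 14.4%, 16.1% and 19.5% over all ranks and 10.4% of the autosomes in reach. Those that were open tended to meet strong ATAC peaks, with a median ATAC rank of 4296, 5249 and 5146 in the first bin and 16945, 10587 and 11092 in the tenth.

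Gene starts followed the same course. Within 1 kb of a coding gene start lay 418 of the 2000 strongest peaks of replicate 1 (20.9%), 346 of replicate 2 (17.3%) and 593 of replicate 3 (29.65%), against 3.22%, 3.58% and 6.21% over all ranks. In the tenth bin the shares were 2.75%, 4% and 6.95%, where 2.06% of the autosomes lay that near a start. The means were 22.6% ± 6.35 and 4.57% ± 2.16 (SD, n = 3), with 3 of 3 libraries higher at the top (exact permutation test, two-sided p = 0.25, the smallest possible). Of the 200 strongest, 67.0%, 53.0% and 79.0% were that close. Replicate 2, whose share of open top peaks lay between those of the others, had the fewest at starts and the most, 70.1%, over 10 kb away. Within 5 kb the means were 29.6% and 12.2%.

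**Figure D3:**
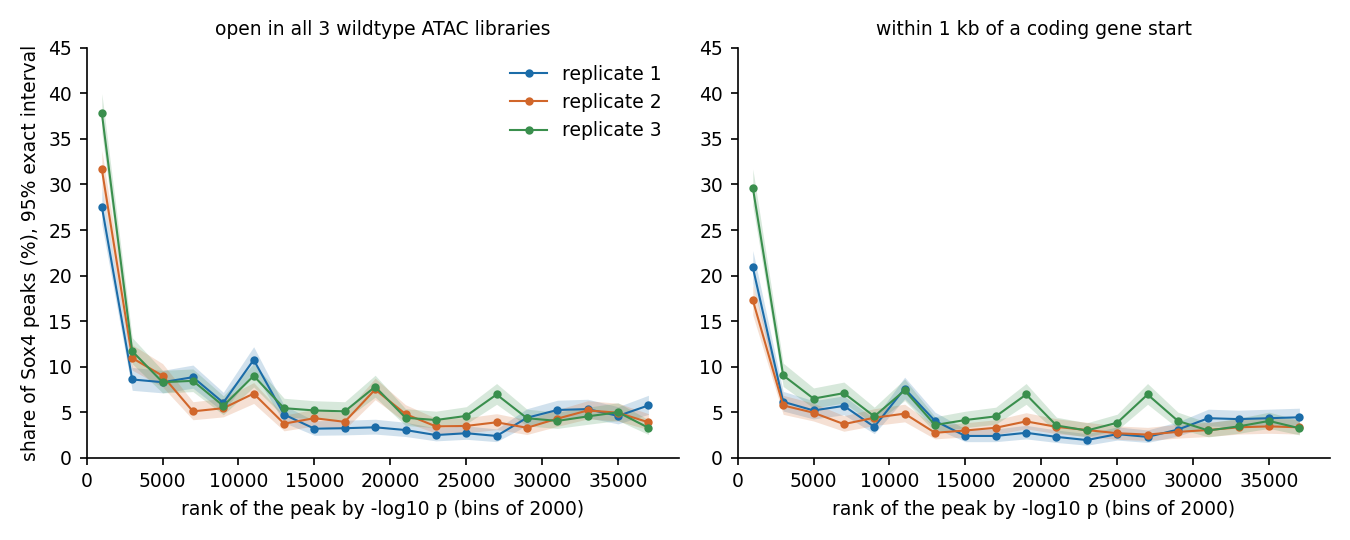
Share of Sox4 peaks (vertical axis, %) that were open in all 3 wildtype ATAC libraries (left) and within 1 kb of a coding gene start (right) against rank in bins of 2000, with 1 line per replicate and bands for 95% exact intervals. The first bin stands at 27.55% to 37.8% open and 17.3% to 29.65% near a start, and the second at 8.60% to 11.7% and 5.75% to 9.05%.

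Recurrence and openness went together at the top of the lists and far down them. Of the 2000 strongest peaks, those held by neither other replicate were open in 8.93%, 9.83% and 14.7% of cases, those held by 1 in 65.6%, 53.2% and 52.3%, and those held by both in 90.7% (interval 86.7 to 93.8, 280 peaks), 89.8% (86.2 to 92.8, 353 peaks) and 86.7% (83.0 to 89.8, 412 peaks). The mean gap between both and neither was 77.9 ± 5.25 points (SD, n = 3). After rank 20000, peaks held by both were still open in 58.5%, 48.5% and 54.3% of cases, against 2.38%, 2.65% and 3.37% of those held by neither. These sets share peaks, since a site in all 3 replicates enters each replicate's count. When summits had to lie within 100 bp, which few Sox4 and ATAC summits did, the gap was 7.81 points.

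**Figure D4:**
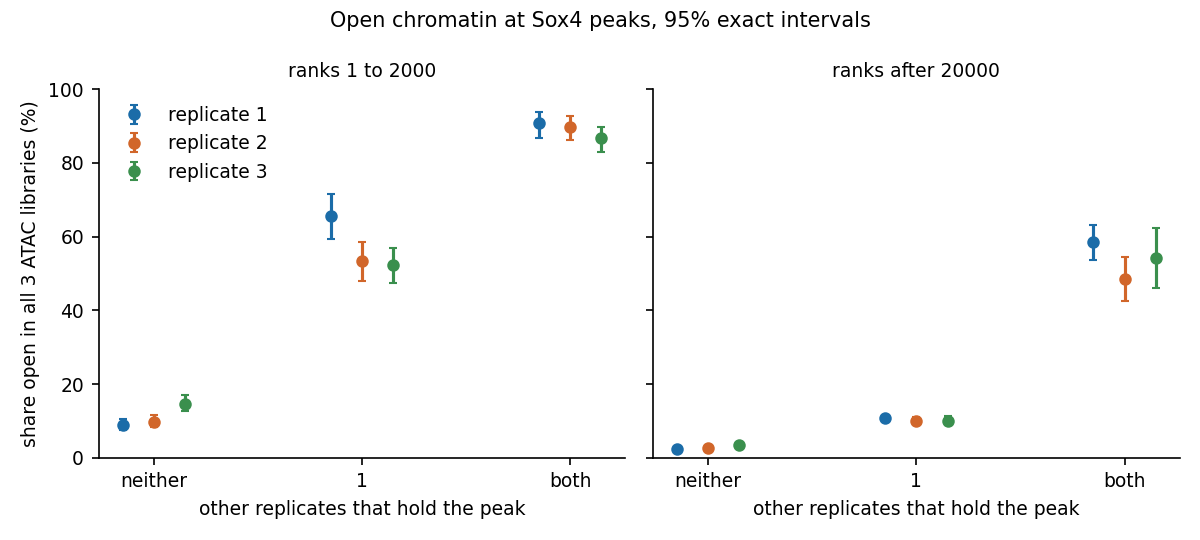
Share of Sox4 peaks open in all 3 wildtype ATAC libraries (vertical axis, %) by the number of other replicates that hold the peak, at ranks 1 to 2000 (left) and after rank 20000 (right), with points for the replicates and bars for 95% exact intervals. Peaks held by both others stand at 86.7% to 90.7% on the left and 48.5% to 58.5% on the right, above those held by neither in both panels.

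Merging the windows of the full lists gave 991 sites in all 3 replicates, 10813 in 2 and 241034 in 1. Of these 72.8%, 15.3% and 2.94% were open, and 44.9%, 8.81% and 2.72% lay within 1 kb of a coding gene start. The 991 fell into 430 open sites at a start, 58 open sites 1 to 10 kb away, 233 open sites over 10 kb away, 55 with a peak in some wildtype list only, and 215 with no wildtype peak. In 154 of the 991 every replicate ranked the site in its 2000 strongest, and of those 142 (92.2%, interval 86.8 to 95.9) were open and 125 (81.2%) lay at a start. The 609 whose worst rank was past 20000 were open in 60.9% of cases and at a start in 33.3%. The number of sites in all 3 rests on the depth of the lists, with 412 among peaks of −log10 q of at least 2, 382 among the 20000 strongest and 340 with windows that overlap only for summits within 100 bp. Without replicates 1, 2 or 3 the remaining pairs shared 2603, 4193 and 6829 sites.

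Away from gene starts, the best open site lay inside Pls1, the gene of plastin 1, an actin-bundling protein of hair cell stereocilia (chr9:95813947-95814493, 31040 bp from the start). It ranked 100, 65 and 98 with folds of 8.397, 6.97 and 6.33, and 1088, 1531 and 713 in the ATAC libraries. Inside Mical3, which encodes an enzyme that oxidises actin, a site 16994 bp from the start ranked 19, 17 and 105. Inside Eya4, a transcriptional coactivator gene in which mutations cause deafness, a site 87717 bp from the start (chr10:23261923-23262563) ranked 564, 53 and 154 and had ATAC ranks of 4357, 4664 and 6866. Another inside Kremen1, the gene of a Dickkopf receptor, ranked 502, 127 and 110. Sites inside Tiam1 and Ccdc148 ranked 465, 56 and 102, and 560, 319 and 502.

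Of the 200 strongest Sox4 peaks, 83.5%, 90.5% and 85.5% had a peak in some full wildtype ATAC list, but several of the very strongest sites had none. The ATAC lists lack 5345, 5111 and 6303 of their peak numbers, so a site with no listed peak may not lack ATAC signal. Of the 10 sites with the best worst rank, 6 had no peak in any full wildtype list, and the other 4 were the open sites at Zfp524, Hnrnpa1, Mrps18b and Deaf1. The top peak of every replicate (chr4:64497669-64498269, 450904 bp from the start of Tnc) had folds of 26.7, 24.1 and 26.2. A site 373042 bp from Kcnh5 (chr12:74803950-74804540) ranked 8, 6 and 4 with folds of 17.7, 13.03 and 14.6, and one inside Lars2 (chr9:123461739-123462286) ranked 4, 11 and 20. The other 3 lay at the low-coordinate end of chromosome 9, over 300 kb from any coding gene start, and had high significance with low folds: that at chr9:3033139-3033692 ranked 5, 4 and 3 with −log10 p of 74.1, 67.1 and 97.1 but folds of 5.25, 3.18 and 3.27. Without chromosome 9 below 3.1 Mb, where the replicates had 6, 5 and 5 peaks, the mean share found in another replicate in the first bin was 34.7%. In the whole set of 154 sites with every rank up to 2000, 12 had no wildtype ATAC peak.

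Sox4 and ATAC summits seldom coincided even where their windows matched. For the 2000 strongest Sox4 peaks, the median distance to a matched ATAC summit was 148 to 185 bp over the 9 pairings of a Sox4 with an ATAC library, and 20.6% to 31.6% lay within 100 bp. Between Sox4 replicates the median was 69.5 to 103 bp, and between ATAC libraries 9 to 11 bp, with 97.6% to 98.3% within 100 bp. At gene starts the Sox4 sites of all 3 replicates lay further from the start than ATAC summits, on both sides. Their median position was 160 bp upstream of the start (389 sites with a known start, quartiles −300 and 97 bp), against 38 bp upstream in each ATAC library, whose quartiles were −95 to −98 and 10 to 16 bp. Of these sites 65.0% were upstream (interval 60.1 to 69.8), and of the ATAC summits 70.7%, 69.3% and 69.8%. Sites of 1 replicate within 1 kb of a start had no such lean, with a median of 3 bp downstream and 49.8% upstream (48.4 to 51.2, 4734 sites). In the 100 bp just before the start lay 8.997% of the sites in all 3 replicates and 47.1% of the ATAC summits of replicate 1, and between 300 and 200 bp before it 16.5% and 3.38%. The letters of Hnrnpa1, Mrps18b and Deaf1 above have their Sox4 summits at bases 27, 57 and 80 of the 300 printed.

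**Figure D5:**
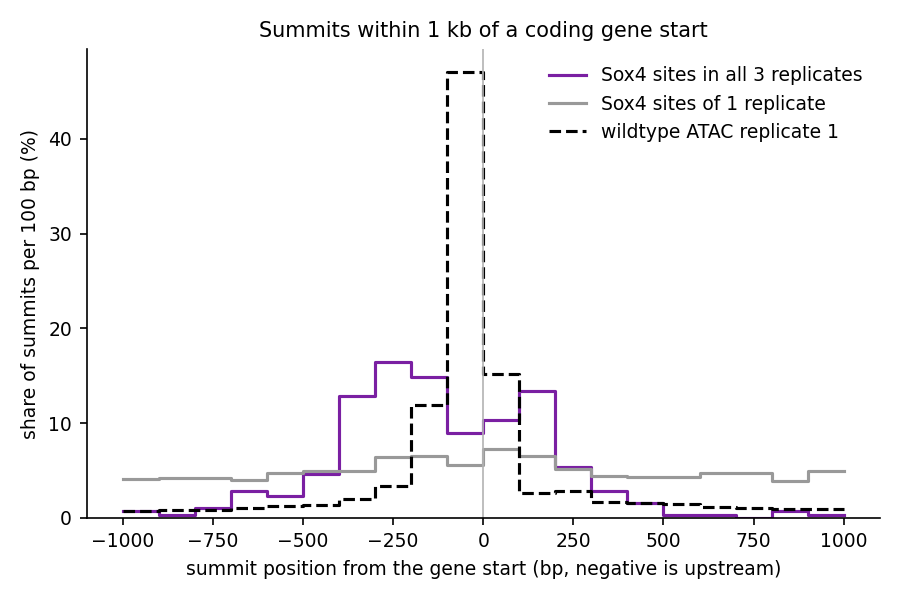
Share of summits per 100 bp (vertical axis, %) by position from the nearest coding gene start (bp, negative upstream), for summits within 1 kb, with lines for Sox4 sites in all 3 replicates, Sox4 sites of 1 replicate and wildtype ATAC replicate 1. The Sox4 sites in all 3 replicates dip to 8.997% in the last 100 bp before the start, where ATAC summits peak at 47.1%.

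The letters of promoters under Sox4 summits were counted in 20063 RefSeq promoters of 300 bases, on both strands. CCAAT, the letters bound by the factor NF-Y, stood in 109 of 182 promoters that held the summit of a site in all 3 replicates (59.9%, interval 52.4 to 67.1). It stood in 38.1% of all promoters and in 44.0% of 7499 promoters with an ATAC summit in all 3 libraries and no such site. Promoters with one of the 2000 strongest ATAC peaks held it in 66.4%, 65.4% and 65.4% of cases in replicates 1 to 3. Among promoters that held both a site in all 3 replicates and an ATAC summit in all 3 libraries, 78 of 96 held it (81.25%, interval 72.0 to 88.5), and among those with a site of 1 replicate and such an ATAC summit 315 of 608 (51.8%, 47.8 to 55.8). The Sox letters (ACAAAG, or its relative ACAATG) stood in 34 of the 182 (18.7%, interval 13.3 to 25.1). They stood in 24.9% of all promoters and in 17.0% of the open promoters without a site in all 3 replicates. Promoters with the 200 strongest peaks of each replicate held them in 20.0%, 21.4% and 15.9% of cases, of 70, 42 and 44 promoters. The GC box GGGCGG stood in 72.0% of the 182 and in 72.2% of the open promoters without a site in all 3, against 47.0% of all. The ETS letters CCGGAAG stood in 18.1%, 22.2% and 11.9%. CCAAT and ACAATG both hold CAAT but differ in the bases before it, so no base run counts as both. These counts describe letters and show no site of binding, and distal peaks could not be read, since no genome sequence was used here.

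Genes of the cochlea were then looked up by their nearest sites. Of 231 autosomal genes in 14 lists, 19 (8.23%) were the nearest coding gene, within 100 kb, of a site in all 3 replicates, against 762 of all 20665 coding genes (3.69%). Within 10 kb there were 11 listed genes (4.76%) against 2.65% of all genes, and within 1 kb 7 (3.03%) against 2.14%. For sites in at least 2 replicates the counts were 126 listed genes (54.5%) within 100 kb against 27.3% of all, and 61 (26.4%) within 10 kb against 13.7%. When those sites had to rank within 20000 in each replicate that held them, 30 listed genes (12.99%) had one within 100 kb, against 5.06% of all. Of the 19 genes, 17 had their best site in chromatin open in all 3 libraries, the exceptions being Prox1 and Gfi1. In 8 of them the site was within the 20000 strongest peaks of every replicate.

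Supporting cell genes had 6 of 20 with a site in all 3 replicates: Sox9, Lgr5, Prox1, Sox10, Etv5 and Id4. The site 70615 bp from Sox9, an HMG-box factor of the otic epithelium and supporting cells (chr11:112711345-112711940), was the best of them and ranked 1282, 388 and 201 with folds of 5.62, 5.87 and 5.06. Etv5, an ETS factor downstream of FGF signalling, had a site 219 bp from its start that ranked 605, 62961 and 9319. Among prosensory genes 4 of 25 had one. At Id2, whose product holds bHLH factors off DNA, the site 331 bp from the start ranked 2350, 311 and 256. At Jag1, the Notch ligand of the prosensory domain, it lay 8950 bp from the start and ranked 6556, 1126 and 18825. At Lgr5, the R-spondin receptor, it lay inside the gene, 43220 bp from the start (chr10:115493185-115494175), and ranked 36159, 15 and 375. At 5 of the 6 supporting cell genes, all but Sox9, at least 1 replicate placed the site past rank 20000, with worst ranks of 36159 at Lgr5, 41670 at Prox1, 59285 at Sox10, 62961 at Etv5 and 64744 at Id4. Within 10 kb the supporting cell list had 2 of 20. Lgr5 and Prox1 stand in both the supporting cell and the prosensory list.

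Wnt genes had 3 of 25, with Fzd7, a Wnt receptor, at ranks 1031, 1042 and 5971, 340 bp from its start. The other two were Lgr5 and Rspo2, which encodes an R-spondin and ranked 35733, 3128 and 18219. Hair cell genes had 2 of 20. Ush1c, which encodes harmonin of the stereocilia, had a site 10617 bp from its start at ranks 11295, 141 and 19210. Gfi1, a zinc finger factor of hair cells, had one inside Evi5 at ranks 137207, 57527 and 8242 with no wildtype ATAC peak. The Notch list had 1 of 20 (Jag1), the medial floor and roof list 2 of 20 (Calb1 and Otogl), cell cycle 2 of 24 (Ccnd1 and Pcna, a sliding clamp of DNA replication), housekeeping 2 of 22 (Hnrnpa1 and Hnrnpa2b1) and chromatin genes 1 of 19 (Kat7). Kat7, a histone acetyltransferase, ranked 10212, 1700 and 36. Lists for cells outside the duct had 0 of 14 (spiral ganglion neuron), 0 of 9 (otic mesenchyme) and 1 of 13 (glia, blood and endothelium, with Sox10, which supporting cells also express), counts too small to set apart from the 3.69% of all genes. For sites in at least 2 replicates within 100 kb these lists stood at 35.7%, 66.7% and 30.8%, against 27.3% of all genes. The hair cell and supporting cell lists stood at 55% and 50%, and all lists together at 54.5%. The prosensory and Wnt lists stood at 72% each, and the medial floor and roof list at 75%. The counts of 1 to 3 genes in the other lists above are also too small to set apart from the share of all genes. The Hippo and TEAD list had 0 of 16 and the SoxC family 0 of 3 with a site in all 3 replicates. For sites in at least 2 replicates within 100 kb they had 9 of 16 and 3 of 3. Within 10 kb the SoxC family had 2 of 3, against 13.7% of all genes. Sox12 had an open site 1330 bp from its start at ranks 3187 in replicate 2 and 10315 in replicate 3.

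Among the genes named for the sorted cells and their fates, Jag1, Lgr5, Prox1 and Gfi1 had a site in all 3 replicates, as above. Of all coding genes 3.69% had such a site within 100 kb. The sites at the other genes were held by 1 or 2 replicates, and some lay far down the lists. Cdkn1b, whose reporter sorted the cells, had an open site 172 bp from its start (chr6:134920228-134920823) at ranks 209 in replicate 1 and 91 in replicate 3, with no peak in replicate 2. Its folds of 4.98 and 3.54 were low for those ranks. The bins of 200 that hold them had median folds of 7.54 and 6.10. The reason for the low folds was not tested. Atoh1, the bHLH factor that hair cells require, had a peak 688 bp from its start at rank 382 in replicate 1 and none there in the others. It met a wildtype ATAC peak in ATAC replicate 2 only, at rank 70558. Around Sox4 itself the best site shared by 2 replicates lay 51187 bp away at ranks 36146 and 47983, and around Sox11 37994 bp away at ranks 19139 and 851. Pou4f3, a POU factor of hair cells, had one 11348 bp away at ranks 11173 in replicate 2 and 1506 in replicate 3. These sites at Sox4, Sox11 and Pou4f3 had no wildtype ATAC peak. Isl1, a LIM-homeodomain factor, had peaks of single replicates only, at rank 2866 in replicate 1 and 6102 in replicate 3. Sox2, the SoxB1 factor that specifies the prosensory domain, had its best shared site by worst rank 92504 bp away, at ranks 78101 and 57324, with no wildtype ATAC peak. A second, 14432 bp away, ranked 138246 in replicate 1 and 2351 in replicate 3 and had ATAC ranks of 73602, 37445 and 36022. Numb ranked 1659 and 1126 in replicates 1 and 3, and Notch1 6139 and 5935 in replicates 1 and 2, both at open sites.

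Some strong peaks stood in 1 replicate alone. In replicate 1 the strongest such peak lay inside Dnah7b, a dynein gene, at rank 12 with a fold of 16.5, followed by peaks nearest to Igf2 (rank 18) and Fam107a (rank 38). In replicate 2 these were inside Yap1, the Hippo coactivator gene, at ranks 41 and 43, and 207 bp from the start of Six4, a homeobox gene, at rank 59. In replicate 3 they came later, near Cwc22 (rank 96), Rps6ka1 (rank 133) and again at the low-coordinate end of chromosome 9 (rank 150). Of these 9 peaks, those at Six4 and Rps6ka1 were open in all 3 wildtype libraries, with ATAC ranks of 1235, 2662 and 2251 at Six4. Those at Dnah7b, Fam107a, Cwc22 and on chromosome 9 had no wildtype ATAC peak.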

How the data were processed

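Only peak lists were analysed, 3 of Sox4 CUT&RUN and 3 of wildtype ATAC-seq. Each row of a deposited list gave a peak's fold enrichment as a ratio over local background, −log10 p, −log10 q and summit offset, made by the authors from each library separately. The submitters' processing notes list STAR, UMI-tools, deepTools and MACS2 with no version, on mm10 (GRCm38). The names of the Sox4 lists state a p threshold of 0.01, and 75, 65 and 70 of the peak numbers are not listed in them. In the wildtype ATAC lists 5345, 5111 and 6303 peak numbers are not listed, and these lists hold no rows on X or Y. The labels' protocol states a minimum of 20000000 paired-end reads per Sox4 sample, but the lists hold no read totals, so the depth behind each peak is unknown.

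Overlapping rows of a library were merged, which joined no Sox4 rows, and ranked by −log10 p, then fold, with remaining ties in a random order from a fixed seed. Summits were widened by 250 bp on each side. Gene starts came from RefSeq promoters on GRCm38.p6 for 16457 of 20665 autosomal coding genes, and either gene end stood in for the other 4208. Intervals are Clopper-Pearson at 95%. Bins were compared with an exact two-sided permutation test of signs over 3 libraries. Alternatives were other rankings, matching distances, ATAC depths and gene distances, and each library left out. The overlap code was tested on simulated data. Python 3.11.15, numpy 2.4.6, pandas 2.3.3, scipy 1.17.1 and matplotlib 3.10.9 were used. Another list of Sox4 replicate 1, the knockout ATAC lists and the single-cell files were not used here. Members and gene lists were chosen with earlier results of these data known.

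Genes were named by a rule: 11 genes of the prosensory lineage, the 10 best sites by worst rank over the replicates, the 10 best open at a start, the 8 best open over 10 kb from a start, the 6 best with no wildtype ATAC peak, the 3 strongest peaks of each replicate alone, and up to 3 genes per list. Not all are printed. Genes named only as a list's members with a site in all 3 replicates, and Ing1, lie outside it and were chosen after their values were seen.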

Additional observations from a re-analysis of the deposited data

How the results depend on the processing

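In every alternative that gave both bins, the first bin stood above the tenth: by 2.70 to 6.51 times for recurrence (10 settings, the main one included), 3.92 to 6.74 times for openness (14) and 2.43 to 5.66 times for gene starts (9). Of 91 alternative values, 64 moved by less than 1 SD over the libraries or, for counts, by at most 1.5 times. With summits within 100 bp, recurrence was 20.9% and 3.22%, openness 5.68% and 1.12%, the share of the 2000 strongest held by 2 replicates 8.67%, the sites in all 3 numbered 340, and the openness gap between peaks held by both and by neither was 7.81 points. With the 20000 strongest peaks of the other replicates, recurrence was 25.4% and 4.23%. Within 5 kb of a start lay 29.6% and 12.2%. With all ATAC peaks 8.95% were open in the tenth bin. Sites in all 3 numbered 412 at a −log10 q of at least 2 and 382 among the 20000 strongest, and 11 listed genes had one within 10 kb. Leaving out each Sox4 replicate, which removes a list to be found in, gave recurrence of 25.6% to 26.8% and 6.10% to 7.58%, 11.3% to 13.8% for the 2000 strongest shared, 2603 to 6829 sites and a gap of 61.3 to 63.4 points, and leaving out each ATAC library a gap of 77.6 to 78.4. Ranking by fold, full peak extents, the 25000 strongest ATAC peaks, leaving out an ATAC library, ties by position and either gene end moved no share by 1 SD or more and no count by over 1.5 times. The last 2 of these, and leaving out the start of chromosome 9, were chosen after seeing the data. No paired analysis was possible because Sox4 and ATAC lists that share a replicate number are different material and were not tested against each other. The bins were compared within each library. Depth, which the lists do not give, limits what an absent peak can show.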

Other observations

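Seen from open chromatin, strong ATAC peaks carried Sox4 peaks more often than weak ones. Of the 2000 strongest peaks of the wildtype ATAC libraries, 9.45%, 8.70% and 8.55% matched a peak in all 3 Sox4 replicates, and at ranks 48001 to 50000 0 of 2000, 0.250% and 0 of 2000 did. Single Sox4 lists covered more of the 2000 strongest peaks of ATAC replicate 1, at 36.85%, 25.2% and 24.25%. Even so, most of the strongest open regions had no peak in a given Sox4 list.

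The 2000 strongest Sox4 peaks lay in richer gene neighbourhoods than later ones, with a mean of 11.7, 10.7 and 13.7 coding genes within 500 kb, against 8.89, 7.79 and 10.4 in the tenth bin of 2000. Across the 19 autosomes, which share a library, the density of these top peaks had a Pearson r with gene density of 0.65 in replicate 1, 0.14 in replicate 2 and 0.70 in replicate 3. For all peaks it was −0.12, −0.37 and −0.07, so the long tails of the lists did not follow gene density.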
